A study of Mus musculus with 4 samples.

Results

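Heart muscle contracts when calcium enters the cell and releases more calcium from an internal store, the sarcoplasmic reticulum, and it relaxes when the calcium is pumped back. The genes described here encode the parts of that cycle and 1 pacemaker channel. They are Pln, Sln, Atp2a2, Ryr2, Casq2, Slc8a1, Cacna1c and Hcn4, and they were measured in whole mouse embryos lacking Cop1. All probe sets that the array's annotation table assigns to exactly 1 of these 8 genes were used. These were 20 of the 45037 probe sets tested, for 7 of the 8 genes, and the table lists no such probe set for Hcn4, so the pacemaker channel itself was not analysed here.

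Embryos were taken at embryonic day 9.5. The Cop1-null pool combined RNA of 6 embryos. The control pool combined RNA of 6 other embryos, which were +/+ or +/- for Cop1 and carry the label wild-type in the sample titles. From each pool 2 portions were hybridised to separate Affymetrix arrays, giving 4 arrays. COP1 is a ubiquitin ligase that marks transcription factors for degradation, and how the null allele was made is not given in the sources used here. The p-values below rest on the spread between portions of 1 pool, so they compare 2 RNA pools and include no spread between embryos or litters. In RNA of whole embryos, fewer cells of a type and less RNA per cell cannot be told apart.

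Values are log2 expression as deposited, so a difference of 1 is a 2-fold difference. The words rose and fell are kept for a change of at least 1.5-fold with an adjusted p under 0.05 (limma, Benjamini-Hochberg adjustment over all probe sets). The targeted gene, read by 1 probe set, was 9.67 and 9.77 on the null arrays and 11.35 and 11.26 on the control arrays, a fall of 2.99-fold (limma, adjusted p = 0.000728). The labels do not say if it reads the part that was removed. Array medians lay between 6.03 and 6.10, and Pearson's r across probe sets was 0.998 between portions of either pool and 0.980 to 0.982 between pools. Of 12 contractile markers of heart muscle 1 rose and 1 fell, each gene read by its brightest probe set. Of all genes 3.58% rose and 8.06% fell. The mean level of the 12 markers was 9.92 and 9.92 on the null arrays and 9.93 and 9.94 on the control arrays. That mean joins opposite differences, with Myh7 at 1.20 and Tnni1 at -0.75, so it does not show that each marker was unchanged. Over a longer list of 19 contractile genes the mean level was 9.40 and 9.40 on the null arrays. It was 9.47 and 9.47 on the control arrays.

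Pln showed the greatest fall of the 7 genes, and the fall was seen by every probe set of the gene. Of the 20 probe sets 6 fell and 2 rose, whereas 6.96% of all probe sets tested fell and 6.76% rose. The falls were those of the 3 probe sets of Pln and of 1 each for Sln, Atp2a2 and Slc8a1, and both rises belonged to Atp2a2. The median difference was -0.49 over the 20 probe sets and 0.01 over all probe sets. With each gene represented by its probe set of highest mean, Pln and Sln fell and 0 of the 7 genes rose, beside 8.06% of all 18193 genes that fell and 3.58% that rose. The median over the 7 genes was then 0.12, beside -0.02 over all genes. The arrays of the 2 pools did not overlap in 19 of the 20 probe sets, and they did not overlap in 65.3% of all probe sets.

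**Figure D1:**
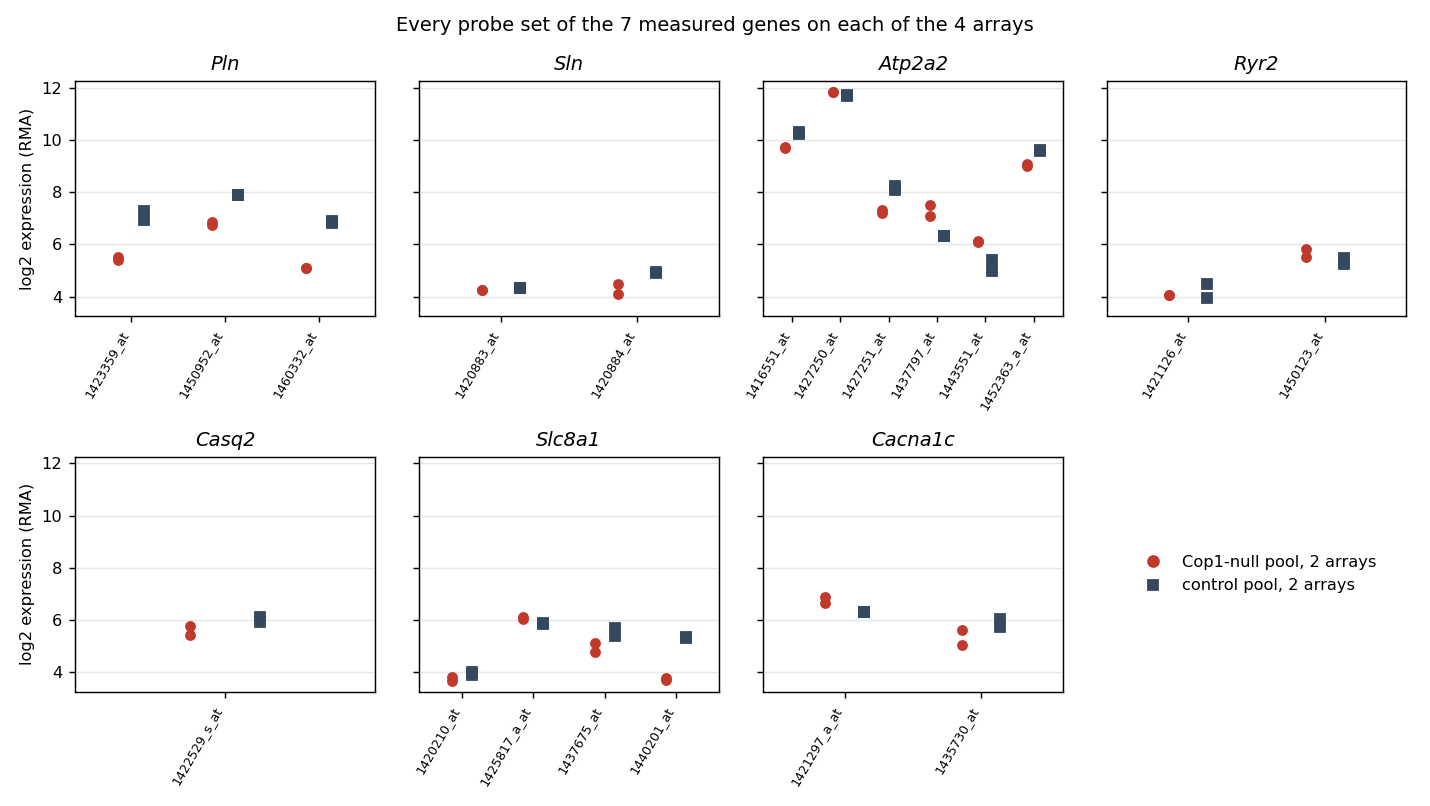
Log2 expression of each of the 20 probe sets (x axis, by gene) on the 4 arrays, with the Cop1-null pool as circles on the left and the control pool as squares on the right, 2 arrays each. The 3 Pln probe sets lie lower in the null pool, whereas those of Atp2a2 go both ways, and levels of different probe sets are not comparable.

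Pln encodes phospholamban, a small membrane protein that holds back the calcium pump of the sarcoplasmic reticulum until it is phosphorylated. Its brightest probe set, 1450952_at, read 6.75 and 6.87 on the null arrays and 7.90 and 7.91 on the control arrays. Probe set 1460332_at read 5.10 and 5.08 on the null arrays and 6.81 and 6.88 on the control arrays. Probe set 1423359_at read 5.42 and 5.51 on the null arrays and 6.94 and 7.26 on the control arrays. In all 3 the null arrays lay below both control arrays, and the gap between pools was at least 5.1 times the larger gap between portions of a pool.

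The fall of Pln differed in size between its probe sets. It was 1.10 log2 units (SE 0.07) or 2.14-fold by 1450952_at, a fall by 1.75 (SE 0.07) or 3.37-fold by 1460332_at, and a fall by 1.64 (SE 0.12) or 3.11-fold by 1423359_at. The adjusted p-values were 0.00115, 0.000605 and 0.00151 (limma). All 3 probe sets kept the call when any 1 array was left out. With the arrays centred on contractile genes of heart muscle, the differences were -1.02, -1.68 and -1.56, so Pln was also lower relative to those genes. All 3 are listed for the same transcript record, AK002622.

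The window around the start site of Pln is printed here because Pln is the gene whose probe sets fell throughout, and that of Slc8a1 because 1 of its probe sets fell about as far. The windows hold 250 bases before and 50 bases from the annotated start, from RefSeq on GRCm38.p6, at chr10:53337436-53337735 on the plus strand for Pln and chr17:81738338-81738637 on the minus strand for Slc8a1. Capitals mark CCAAT (the CCAAT box), GATAA (GATA factors) and ACGTG (the hypoxia response core) on either strand.
Pln: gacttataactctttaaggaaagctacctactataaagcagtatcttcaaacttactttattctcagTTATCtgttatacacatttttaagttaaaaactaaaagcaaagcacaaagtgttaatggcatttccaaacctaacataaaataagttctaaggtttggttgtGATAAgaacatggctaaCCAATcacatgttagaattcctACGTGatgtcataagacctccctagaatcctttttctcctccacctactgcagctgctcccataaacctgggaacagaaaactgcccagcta
Slc8a1: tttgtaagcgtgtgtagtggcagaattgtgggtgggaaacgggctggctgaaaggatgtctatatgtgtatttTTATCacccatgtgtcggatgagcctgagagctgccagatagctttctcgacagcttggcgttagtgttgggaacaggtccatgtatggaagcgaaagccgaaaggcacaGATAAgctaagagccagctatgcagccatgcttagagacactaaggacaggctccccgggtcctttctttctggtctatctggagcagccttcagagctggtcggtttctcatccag

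Both windows held GATAA on each strand, at -81 and in reverse at -183 in Pln, and at -67 and in reverse at -177 in Slc8a1, counting the first base of the match from the start site. At least 1 match to this motif on either strand lies in 25.4% of 32851 promoter windows of 300 bases. The shares below count windows in the same way, and the share with GATAA on each strand was not counted. Pln also held CCAAT at -64, found in 37.4% of windows, and ACGTG at -42, found in 19.6%, and Slc8a1 held neither. AAGTG, a core bound by NKX2-5, lay at -136 in Pln and is found in 46.4% of windows. TATAAA lay at -219 in Pln (13.6% of windows), and CANNTG, the E-box, lay in both windows (72.3%). An ACGTG can overlap an E-box, but the one in Pln did not. The motifs TGANTCA of AP-1 (7.81%) and CCGGAA of ETS factors (14.9%) were in neither window. A match is a string of letters and no evidence of binding. The table has entries for 6 of the 8 genes, and Atp2a2 and Sln are not among them.

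Sln encodes sarcolipin, a relative of phospholamban that also restrains the pump and is found mainly in the atria and in skeletal muscle. Its probe set 1420884_at read 4.50 and 4.09 on the null arrays and 4.96 and 4.91 on the control arrays. The groups did not overlap, but the null portions differed by 0.41. The fall was 0.64 log2 units (SE 0.15) or 1.56-fold (limma, adjusted p = 0.0287), close to the fold limit. Without null replicate 2 it was 0.43 (adjusted p = 0.0505), without control replicate 1 it was 0.61 (adjusted p = 0.133) and without control replicate 2 it was 0.66 (adjusted p = 0.12), none of which was called. The other probe set, 1420883_at, read 4.24 and 4.26 on the null arrays and 4.34 and 4.35 on the control arrays, a difference of -0.10 (95% interval -0.25 to 0.06). Both probe sets lay low on the array, at percentiles 27.7 and 22.6 of the means of all probe sets.

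Markers of skeletal muscle were mostly lower in the null pool too. Of 6 such genes 4 fell and 0 rose by their brightest probe set, beside 8.06% of all genes that fell and 3.58% that rose. The median of the 6 was -0.69. Their mean level was 6.52 and 6.47 on the null arrays and 7.27 and 7.21 on the control arrays. Myog, a myogenic transcription factor gene, fell by 1.49 log2 units, Myf6 fell by 1.21, Myf5 fell by 0.72 and Myod1 fell by 0.66. Without a call, Myh3 differed by -0.51 and Acta1 by 0.10. The part of skeletal muscle cells in the differences of Sln and Pln was not tested. Relative to contractile genes of heart muscle the difference of Sln was -0.56, which is under the fold limit.

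Atp2a2 encodes SERCA2, the pump that refills the sarcoplasmic reticulum, and it also makes a form used by the endoplasmic reticulum of most other cells. Its 6 probe sets went in different directions. The brightest, 1427250_at, read 11.84 and 11.81 on the null arrays and 11.73 and 11.69 on the control arrays, a difference of 0.12 (SE 0.06, adjusted p = 0.226, limma) with a 95% interval of -0.04 to 0.28. That interval excludes a change as large as 1.5-fold in either direction for this probe set, as far as the spread between portions goes.

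Probe set 1427251_at of Atp2a2 read 7.32 and 7.21 on the null arrays and 8.09 and 8.22 on the control arrays, and it fell by 0.89 log2 units or 1.85-fold (limma, adjusted p = 0.00232). Probe set 1416551_at read 9.73 and 9.68 on the null arrays and 10.30 and 10.24 on the control arrays. Probe set 1452363_a_at read 9.06 and 8.99 on the null arrays and 9.63 and 9.58 on the control arrays. The last 2 differed by -0.56 and -0.58, with adjusted p-values of 0.0043 and 0.00416 (limma), and lay just under the fold limit at 1.48-fold and 1.49-fold lower. Their arrays did not overlap, and without null replicate 1 (-0.59 and -0.61) or without control replicate 2 (-0.60 and -0.61) both were called.

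The 2 remaining probe sets of Atp2a2 were higher in the null pool. Probe set 1437797_at read 7.53 and 7.10 on the null arrays and 6.33 and 6.32 on the control arrays, a rise of 0.98 log2 units or 1.98-fold (limma, adjusted p = 0.00897). Probe set 1443551_at read 6.15 and 6.10 on the null arrays and 5.41 and 5.00 on the control arrays, a rise of 0.92 or 1.89-fold (limma, adjusted p = 0.0101). The null portions of the first lay 0.43 apart and the control portions of the second 0.41 apart. For the first, leaving out control replicate 1 or 2 gave 0.99 and 0.98, with adjusted p-values of 0.0617 and 0.0645. For the second, leaving out null replicate 1 or 2 gave 0.89 and 0.95, with adjusted p-values of 0.0703 and 0.0679, so neither rise was then called. Which transcripts of Atp2a2 the 6 probe sets read is not given in the sources used here. Among 393 genes with 6 or more probe sets, 10.2% had at least 1 probe set called in each direction, as Atp2a2 did, against 1.66% of the 9010 genes with more than 1.

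**Figure D2:**
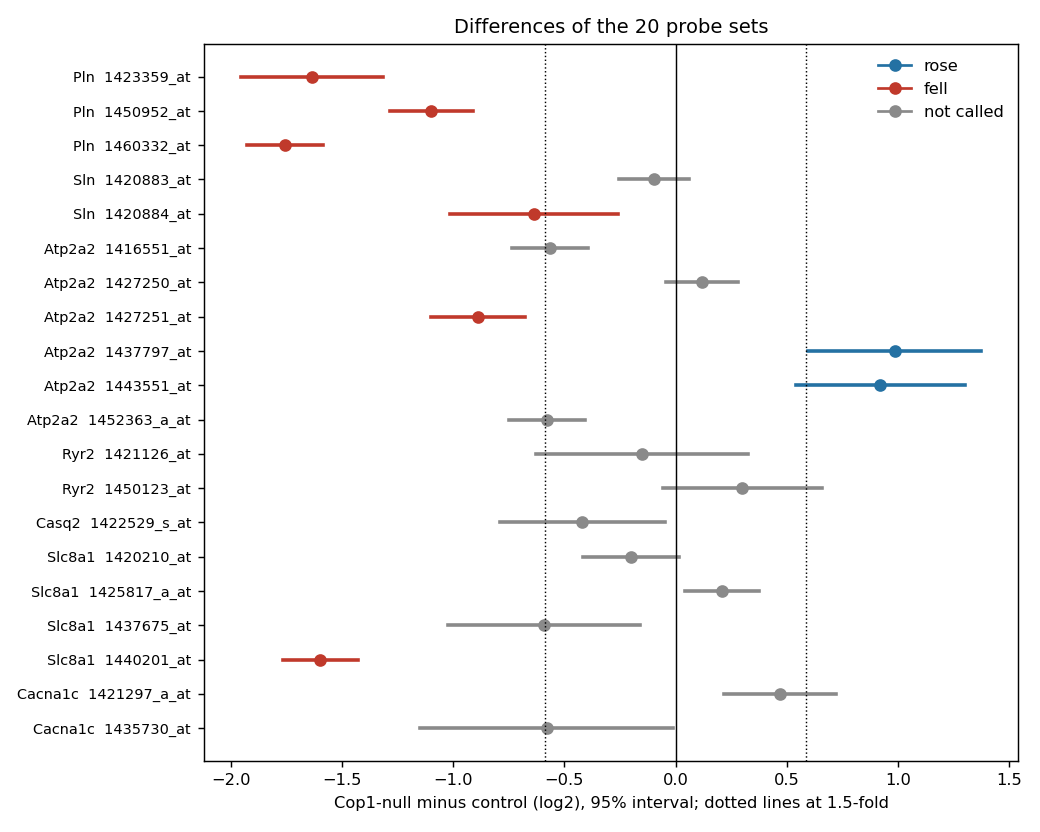
Differences of the 20 probe sets, Cop1-null minus control, on the log2 scale (x axis) with 95% intervals from limma that cover the spread between portions only. The 3 Pln probe sets and Slc8a1 1440201_at lie beyond -1, and the 6 Atp2a2 probe sets run from -0.89 to 0.98.

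Since phospholamban acts on SERCA2, the level of Pln was also set against that of Atp2a2 within each array. With the brightest probe set of each gene, log2 Pln minus log2 Atp2a2 was -5.10 and -4.95 on the null arrays and -3.83 and -3.78 on the control arrays. Only the change of this ratio can be read, since the 2 probe sets have different binding strengths. The change was -1.22 log2 units, and the groups did not overlap. An exact two-sided permutation test over the arrays gave p = 0.333, the smallest value that 2 against 2 arrays allow. Over all 18 combinations of a Pln and an Atp2a2 probe set, the change ran from -2.74 to -0.21, so its size depended on the probe sets chosen. It was negative in all 18 because even the smallest fall of Pln (-1.10) exceeded the greatest fall of Atp2a2 (-0.89). The 18 signs thus follow from the differences given above and add no further support. The smallest change was against 1427251_at, the probe set of Atp2a2 that fell.

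**Figure D3:**
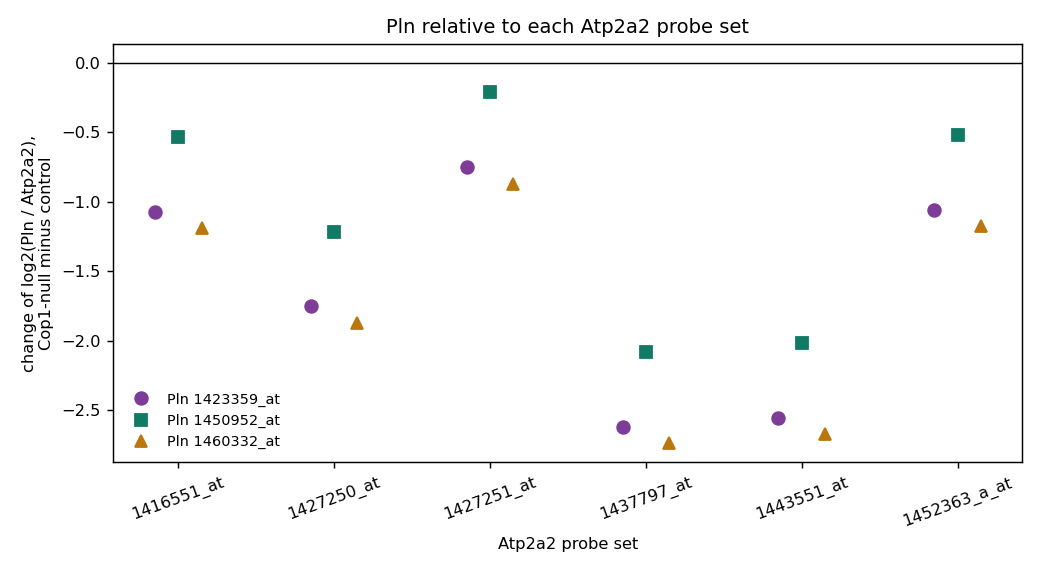
Change of log2(Pln / Atp2a2), Cop1-null minus control (y axis), for each Atp2a2 probe set (x axis) and each of the 3 Pln probe sets (symbols), from the means of 2 arrays a pool. Every point lies below 0, between -2.74 and -0.21, which follows from the differences of the single probe sets.

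Ryr2 and Casq2, the release channel of the sarcoplasmic reticulum and the calcium-binding protein of its interior, had no called probe set. Ryr2 1450123_at read 5.82 and 5.51 on the null arrays and 5.25 and 5.48 on the control arrays, a difference of 0.30 (95% interval -0.06 to 0.66). The higher control array lay only just below the lower null array. Ryr2 1421126_at read 4.06 and 4.05 on the null arrays and 4.48 and 3.94 on the control arrays, and there the groups overlapped. Its difference was -0.15 and turned to 0.12 without control replicate 1. Casq2 was read by 1 probe set, 5.41 and 5.77 on the null arrays and 5.91 and 6.11 on the control arrays. The difference of Casq2 was -0.42 (95% interval -0.79 to -0.05, adjusted p = 0.0871, limma), so it missed the threshold although the groups did not overlap.

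Cacna1c and Slc8a1 stand at the cell surface. Cacna1c encodes the pore of the L-type calcium channel, through which the trigger calcium enters, and its 2 probe sets pointed in opposite directions without a call. Probe set 1421297_a_at read 6.90 and 6.67 on the null arrays and 6.30 and 6.33 on the control arrays. It was 1.38-fold higher in the null pool, with an adjusted p of 0.0218 (limma) but under the fold limit. The log2 difference was 0.35 without null replicate 1 and 0.59 without null replicate 2. It was 0.46 without control replicate 1 and 0.48 without control replicate 2. Of these, only the value without null replicate 2 was just past the fold limit. Probe set 1435730_at read 5.03 and 5.61 on the null arrays and 5.74 and 6.06 on the control arrays, a difference of -0.58 (adjusted p = 0.112, limma), with null portions 0.57 apart.

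Slc8a1 encodes the sodium-calcium exchanger NCX1, which carries calcium out of the cell. Probe set 1440201_at read 3.72 and 3.79 on the null arrays and 5.33 and 5.37 on the control arrays. It fell by 1.60 log2 units (SE 0.07) or 3.02-fold (limma, adjusted p = 0.000633), with the null portions 0.06 and the control portions 0.04 apart. On the null arrays this probe set lay below the lower quartiles of all probe sets, 4.46 and 4.47, so it was dim there and the size of the fall is uncertain, as the files do not show whether it stood above background. The fall was called whichever 1 array was left out.

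The other 3 probe sets of Slc8a1 were not called. Probe set 1437675_at read 5.13 and 4.77 on the null arrays and 5.38 and 5.70 on the control arrays, 1.51-fold lower with an adjusted p of 0.0519 (limma). Probe set 1425817_a_at, the brightest, read 6.11 and 6.05 on the null arrays and 5.86 and 5.88 on the control arrays, a difference of 0.21 (95% interval 0.04 to 0.38, adjusted p = 0.0647). Probe set 1420210_at, low on all 4 arrays, differed by -0.20 (adjusted p = 0.14). The gene thus had 1 fallen probe set, and its brightest probe set lay slightly the other way. The mean over its 4 probe sets gave -0.54 (adjusted p = 0.00329, limma, with gene means fitted), against 0.21 by the brightest alone.

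Of 87 measured genes in 5 lists of related calcium and pacemaker processes, 93.1% were not called by their brightest probe set, beside 88.4% of all genes. Other probe sets of these genes were called in places and are given with each list. In the list of the sarcoplasmic reticulum calcium store, 0 of 22 measured genes rose and 0 fell, with a median of 0.00 and a range of -0.50 to 0.56. Its greatest differences were those of Asph, the junctin and aspartyl hydroxylase gene (0.56, adjusted p = 0.00499, 1.47-fold higher), and Atp2a1, the pump of fast skeletal muscle (-0.50, adjusted p = 0.0569). Over all 57 probe sets of this list 4 rose and 1 fell. Of all probe sets tested 6.76% rose and 6.96% fell, and of all genes 3.58% rose and 8.06% fell by their brightest probe set. The counts of this and the following lists stand beside these shares. Calls of single probe sets are therefore not read as particular to a list. Those singled out here after their values were seen were 2 of Asph (1.31 and 0.60), 1 of Sri (0.88), 1 of Jph1 (0.77) and the falling 1 of Trdn (-0.78). That of Trdn was dim, at percentile 17.3 of the means of all probe sets. Of 17 genes of calcium entry and extrusion 1 rose and 0 fell (median -0.04). This was Cacna1h, a T-type calcium channel gene, which read 8.31 and 8.29 on the null arrays and 7.28 and 7.45 on the control arrays, a rise of 0.94 (limma, adjusted p = 0.00203). Of the list's 39 probe sets 2 rose and 0 fell. The other rise, named after its value was seen, was that of Cacna2d1 1440397_at, for an auxiliary subunit of voltage-gated calcium channels. It read 6.89 and 7.04 on the null arrays and 4.47 and 4.72 on the control arrays, a rise of 2.36 (limma, adjusted p = 0.000728), while the brightest probe set of Cacna2d1 differed by -0.32 without a call.

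Among 19 genes of calcium sensing and of control by PKA or CaMKII, kinases that act on phospholamban, 2 fell and 0 rose (median -0.03). Prkaca, the catalytic subunit of PKA, read 9.57 and 9.38 on the null arrays and 10.22 and 10.33 on the control arrays by 1447720_x_at. It fell by 0.79, and its other probe set fell by 0.68 (limma, adjusted p = 0.00417 and 0.00263). Akap6, which anchors PKA, fell by 0.62 (adjusted p = 0.00702), and its other probe set differed by -0.15 without a call. Of the list's 56 probe sets 2 rose and 4 fell. The rises were 2 dimmer probe sets of Camk2d, a CaMKII gene (0.67 and 1.05), and the remaining fall was 1 of Prkar2a (-0.63), all named after their values were seen.

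Of 17 pacemaker and conduction channel genes 1 fell and 0 rose (median 0.03). Kcnd2, a potassium channel gene, fell by 0.65 (limma, adjusted p = 0.00344) by a probe set low on the array, at percentile 30.1. None of its other 3 probe sets was called. Of the list's 37 probe sets 0 rose and 2 fell, the other being 1 of Bves (-0.78), named after its value was seen. With Hcn4 not analysed here, its relatives Hcn2 and Hcn3 were chosen after their values were seen. Hcn2 differed by 0.19 and Hcn3 by 0.14 (limma, adjusted p = 0.126 and 0.399). The probe set of Hcn2 was dim, at percentile 24.3 of the means of all probe sets. Of 12 transcription factors of the sinoatrial node and conduction system 2 fell and 0 rose (median 0.04). Tbx2, a T-box repressor of the atrioventricular canal, read 6.96 and 7.10 on the null arrays and 8.06 and 8.12 on the control arrays, a fall of 1.06 (limma, adjusted p = 0.00143). Shox2, a homeobox factor that promotes pacemaker identity, read 8.73 and 8.71 on the null arrays and 9.39 and 9.39 on the control arrays, and fell by 0.68 (limma, adjusted p = 0.00222). Its other probe set differed by -0.30 without a call. Of the list's 28 probe sets 1 rose, that of Id2 1453596_at (1.53), and 3 fell, the third being 1 of Tbx3 (-0.74), both named after their values were seen. Tbx2 and Shox2 are expressed in other tissues of the embryo too.

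**Figure D4:**
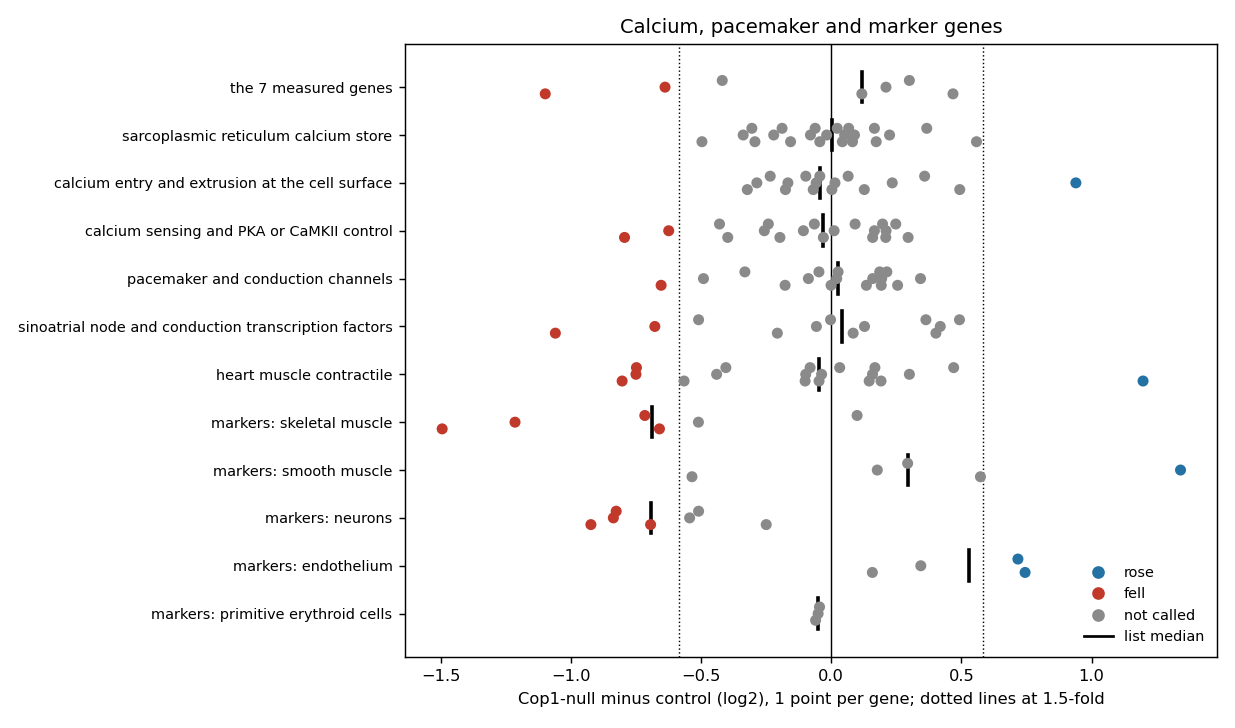
Differences of single genes, Cop1-null minus control (log2, x axis), 1 point per gene by its brightest probe set, in the lists of calcium, pacemaker and marker genes (rows), with each list's median as a bar. By these probe sets, lists of calcium and pacemaker genes centre near 0, whereas markers of skeletal muscle and neurons have medians of -0.69.

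Of 19 contractile genes of heart muscle 1 rose and 3 fell by their brightest probe set, with a median of -0.05. Of the list's 35 probe sets 3 rose and 3 fell. Besides the genes named next, the rises were 1 of Tpm1 (1.36) and 1 of Tnnt2 (0.76), both named after their values were seen. Myh7, the slow myosin heavy chain, rose by 1.20 log2 units, while the light chain gene Myl2 fell by 0.80. Tnni1, the slow skeletal troponin I that the embryonic heart also uses, fell by 0.75, and so did Ldb3, a Z-disc gene, by its brightest probe set. The other probe sets of Ldb3 differed by 0.37 and -0.21 without a call. Pln therefore lay outside the range of this list, whose greatest fall was that of Myl2. The following marker counts stand beside 8.06% of all genes that fell and 3.58% that rose by their brightest probe set. Among markers of other cells that express calcium channels and pumps, neuron genes fell in 4 of 7 cases with a median of -0.69. These were Stmn2 (-0.92), Elavl4 (-0.84), Nefl (-0.83) and Tubb3 (-0.69). The mean level of the 7 was 9.68 and 9.71 on the null arrays and 10.37 and 10.33 on the control arrays. Smooth muscle markers had 1 rise of 5, that of Tagln (1.34), and a median of 0.29. Endothelial markers had 2 rises of 4, Kdr (0.74) and Pecam1 (0.72), and 3 markers of primitive erythroid cells had none. The erythroid probe sets, such as those of Hba-x and Hbb-y, read at the very top of the array's range, where a difference may not show. The part of these cells in the differences of Pln, Atp2a2, Cacna1c and Slc8a1 was not tested.

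The genes whose 4 array values ran most like those of a fallen gene were sought by the root mean square distance between values centred on each probe set's mean, over the 4 arrays. Nearest to Pln were Zfp566 (distance 0.005 log2 units), Rnd2 (0.016) and Rab33a (0.016), with differences of -1.09, -1.11 and -1.07. Nearest to Sln were Ptf1a (0.036), Rimkla (0.038) and Hpgds (0.040), with differences of -0.62, -0.62 and -0.66. With 4 arrays of 2 pools such likeness describes little more than a shared size of the difference.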

How the data were processed

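Whole-embryo RNA of 2 pools, Cop1-null and control, was measured on 4 Affymetrix arrays from 5 µg of RNA each. The authors deposited log2 values per probe set. Per the submitters' processing notes these came from RMA in affy, an R package. No source used here gives their versions or the mapping of probes. The RMA method gives all arrays the same distribution of probe intensities, so a change in total RNA leaves no trace. The deposited log2 values were used unchanged.

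Of 45101 probe sets 64 controls were left out. The annotation table gave 34945 of the rest 1 gene, 932 several and left 9160 unlisted. Of those with 1 gene 34741 matched RefSeq (GRCm38.p6) by gene number, and 0 symbols changed. The fit of null minus control used limma 3.58.1 (R 4.3.3) with lmFit, eBayes and genotype as its single term. A gene was represented by its probe set of highest mean. On simulated data for this comparison (45037 probe sets) 56% of the probe sets changed 1.5-fold and 100% of those changed 2-fold were called, with 5 false calls. A true change of 1.5-fold lies on the fold limit itself, so the first share says little about power. The simulation changed 50 probe sets at each fold size, far fewer than were called in the data. Its noise was normal and set to the spread between portions. Precision is limited by the number of arrays, which have no depth of reads.

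The genes and lists were chosen with earlier results of these data known. The lists held further calcium, pacemaker, contractile and marker genes. Named from each were all called genes, or the 6 with the largest change, or the 2 with the largest change where none was called. Other names are given as chosen after their values were seen. Alternatives covered left-out arrays, scaling, filtering, the variance model, the fold limit and the choice of probe set.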

Additional observations from a re-analysis of the deposited data

How the results depend on the processing

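The portion numbers are shared by the pools, but the labels do not say that they pair arrays, and deviations of equal numbers correlated at 0.06 over probe sets. With the replicate block the counts stayed at 2 rises and 6 falls of 20 probe sets, and at 0 rises and 2 falls of 7 genes. With 1 array left out, 1 to 2 probe sets rose and 5 to 8 fell, and 0 to 1 genes rose and 1 to 2 fell. The change of Pln over Atp2a2 then ran from -1.29 to -1.14. The 3 probe sets of Pln kept their call in all 10 other fits, from -2.01 to -1.02, as did Atp2a2 1427251_at in 10 of 10. Slc8a1 1440201_at kept it in 9 of the 9 fits that held it, and Sln 1420884_at in 5 of 9. Only Pln, 1 of the 7 genes, fell without the dimmest 40% of probe sets (which leaves out both probe sets of Sln, 3 of Slc8a1 with 1440201_at among them, and Ryr2 1421126_at), with centring on contractile genes of heart muscle, or with the mean of all probe sets of a gene. With no fold limit 1 gene rose, Cacna1c.

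The median of 27 poly-A spike probe sets was 7.52 and 7.71 on the null arrays and 7.23 and 7.49 on the control arrays. It thus differed between portions of 1 pool too, so the size of a shift based on it is uncertain. Centring on these spikes shifted all genes to a median of -0.28, against -0.02 without it. It gave 11 falls and 2 rises of the 20 probe sets, beside 15.9% falls and 4.11% rises of all probe sets. There Atp2a2 1427250_at turned to -0.14 (adjusted p = 0.619) and Slc8a1 1425817_a_at to -0.046 (adjusted p = 0.875). Centring moves all differences and their median alike, so both stayed above the moved median by construction. Ryr2 1421126_at ran from -0.42 to 0.12 with 1 control array left out, the sign turning without control replicate 1 (adjusted p = 0.378). With the mean of all probe sets, Atp2a2 gave -0.00121, Slc8a1 -0.54 and Cacna1c -0.055, each against a positive value of the brightest probe set. The causes were not tested. Dim probe sets, such as those of Sln and Ryr2 1421126_at, limit what can be read.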
